A study of Mus musculus with 24 samples.

Results

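The genes described here are 7 markers by which fibroblasts of the mouse heart are recognised: Prrx1, Pdgfra, Tcf21, Ddr2, Thy1, Postn and Meox1. They were found as the array features whose single gene symbol in the platform annotation is one of these names, which gave 7 features, 1 per gene, of 34351 features and 22180 genes in all. Which values led to the choice of Prrx1, which gives the set its name, is not recorded. It was taken as chosen on its 24 h profile in these same hearts, so its values over time are a description and carry no p-value. The other 6 genes were added as fibroblast genes with results of these data already known.

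All hearts came from male mice with the genotype Clock delta 19/delta 19, aged 8 weeks, under 12 h of light and 12 h of darkness. Myocardium was collected every 4 h, with 4 hearts per time point and 24 in all. The light-phase groups were ZT03, ZT07 and ZT11, the dark-phase groups ZT15, ZT19 and ZT23, and ZT counts hours from lights on. Every animal carried the mutation, in which an exon of Clock is skipped and the protein pairs with its partner but activates target genes poorly, and hearts with an intact clock were not analysed here. RNA of whole myocardium was hybridised to 1 array per heart, and the number of arrays limits the precision.

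Values are log2 differences from the median of the 24 arrays, taken gene by gene, as the authors deposited them. They hold no level that could be set against another gene's, and the log base is not stated: if it were e, every size below would be 1.44 times larger on the log2 scale. The spacing of the deposited numbers does mark the features that lay between 8 and 16 before centring, 595 of 34351 (1.73%), and does not settle whether the base is 2 or e. Of the 9 cardiomyocyte markers 8 were among them, with Myl2 the exception, and of 22 further fibroblast genes Gsn was. None of the 7 identity genes was in that class. ZT11 replicate 1 stood apart as the array of lowest weight (0.542), and it was the lowest of the 24 hearts for 9.05% of genes, where the other hearts ranged from 3.00% to 6.68%.

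Fibroblasts make and remodel the collagen matrix of the heart, arise largely from the epicardium, and turn into matrix-secreting activated cells after injury. TCF21 is a basic helix-loop-helix factor needed for the fibroblast fate in the epicardium, PRRX1 is a homeodomain factor of mesenchymal cells, and MEOX1 is a homeodomain factor tied to fibroblast activation in the stressed heart. PDGFRA is a receptor tyrosine kinase for platelet-derived growth factors, DDR2 is a receptor tyrosine kinase that binds fibrillar collagen, and THY1 is a small anchored surface protein that T cells and neurons also carry. Periostin, the product of Postn, is a secreted matrix protein of activated fibroblasts.

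By the RefSeq table of GRCm38.p6, all 7 are protein-coding. Prrx1 spans chr1:163245119-163315145 and Ddr2 chr1:169972307-170110836. Pdgfra spans chr5:75151322-75198206, Tcf21 chr10:22817263-22820143 and Thy1 chr9:44043384-44048579. Postn spans chr3:54359267-54391041 and Meox1 chr11:101877510-101894354. The promoter table of RefSeq for the same build held 5 of the 7 genes, Prrx1, Pdgfra, Tcf21, Ddr2 and Postn. The stretch before the start of Prrx1 is shown because Prrx1 gives the set its name and was taken as chosen on its 24 h profile. It is the 250 bases before the start on the minus strand at chr1:163313651-163313900, written 5′ to 3′, with capitals at the 1 match to a searched motif. The gene record reaches past this window, so the window lies within the gene.
Prrx1: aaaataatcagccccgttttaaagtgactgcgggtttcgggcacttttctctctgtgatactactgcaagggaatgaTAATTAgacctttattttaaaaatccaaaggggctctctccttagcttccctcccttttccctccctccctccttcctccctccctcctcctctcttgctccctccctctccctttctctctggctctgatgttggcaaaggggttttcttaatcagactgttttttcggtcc

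Both strands of the 250 bases were searched for CACGTG, the E-box word bound by CLOCK with BMAL1, for CANNTG, the wider E-box word that contains it and is the core of helix-loop-helix factor sites, for TTATGTAA, the D-box word, and for TAATTA, the core word of many homeodomain proteins. The Prrx1 stretch held TAATTA once, 173 bases before the start, and none of the other words. TAATTA was in 4.84% of 32851 mouse promoter stretches of the same length, CACGTG in 6.02%, CANNTG in 66.2% and TTATGTAA in 0.819%. Among the 5 genes with a promoter entry, CANNTG was found in Pdgfra alone and CACGTG in none. These are matches of letters in a short window and show no binding.

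Prrx1 was high around dawn and low around dusk. At ZT03 the 4 hearts were at 0.15, 0.072, 0.16 and 0.24, and at ZT07 they were at -0.074, 0.13, 0.064 and 0.084. At ZT11 they were at -0.11, -0.10, -0.15 and -0.064, and at ZT15 at -0.088, -0.34, -0.065 and -0.31. All 4 hearts of ZT03 lay above all 4 of ZT11 (true of 4.62% of genes) and of ZT15 (4.62%). At ZT19 the values were -0.074, -0.10, -0.089 and 0.14, and at ZT23 they were 0.18, 0.13, 0.16 and 0.16. The 4 hearts of ZT23 lay between 0.13 and 0.18, above every heart of ZT11 (1.70% of genes) and ZT15 (1.39%), while at ZT19 replicate 4 sat far above the other 3.

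**Figure D1:**
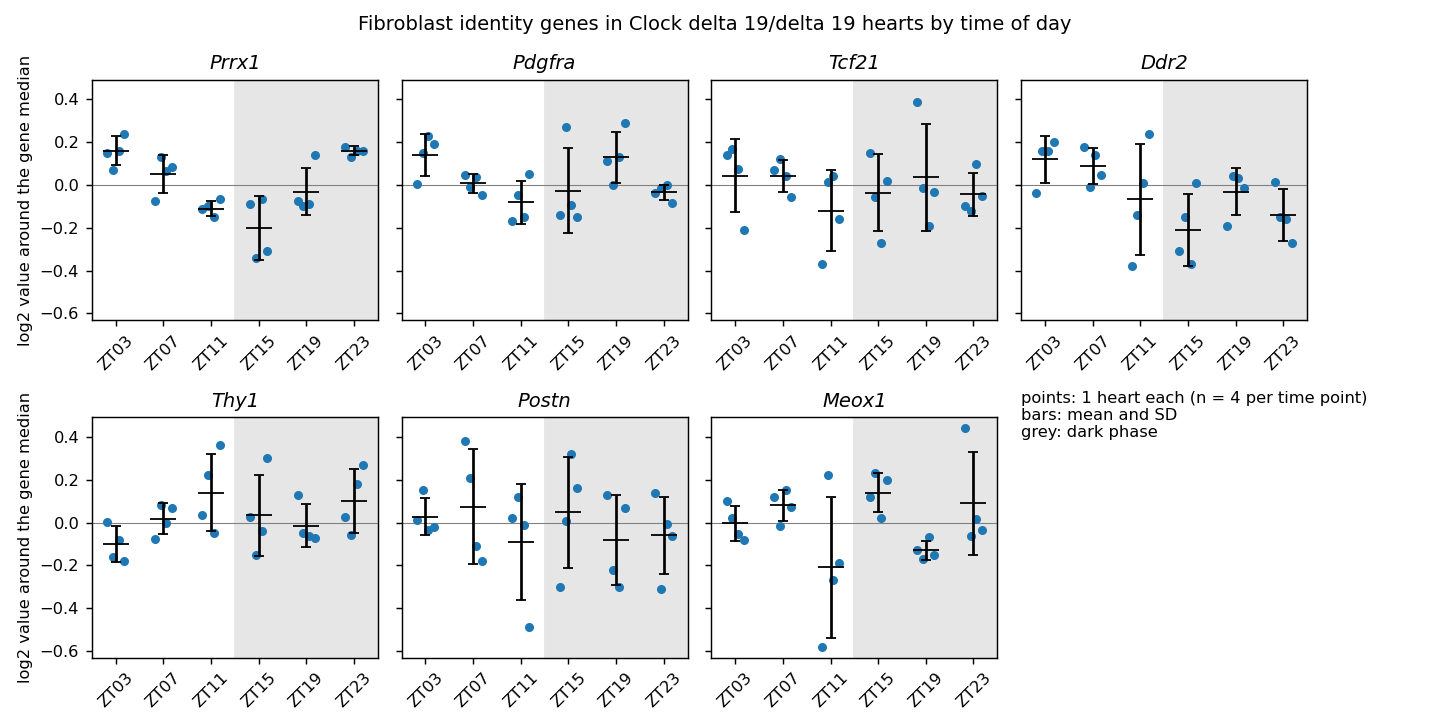
Log2 values around each gene's median (vertical axis) at 6 time points (horizontal axis) for the 7 fibroblast identity genes, with 1 point per heart, bars for mean and SD (n = 4) and the dark phase in grey. Prrx1 has means of 0.16 at ZT23 and ZT03 and of -0.20 at ZT15. The points of Tcf21, Ddr2, Thy1 and Postn overlap between all pairs of time points.

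The order of the Prrx1 means was ZT23, ZT03, ZT07, ZT19, ZT11 and ZT15. Among neighbours in that order, ZT03 and ZT07, and ZT11 and ZT15, were apart by more than the SD within time points of 0.09, and the other neighbours were not. The means spanned 0.36, which is 3.98 of these SDs. ZT03 minus ZT15 was 0.36 ± 0.062 (SE), with means of 0.16 ± 0.067 (SD, n = 4) at ZT03 and -0.20 ± 0.15 (SD, n = 4) at ZT15. ZT11 minus ZT23 was -0.26 ± 0.062 (SE), with means of -0.11 ± 0.036 (SD, n = 4) and 0.16 ± 0.022 (SD, n = 4). Light minus dark was 0.059 ± 0.036 (SE), since both phases held high and low time points. A cosine of period 24 h gave an amplitude, from mean to peak, of 0.18 ± 0.024 (SE) with a peak at ZT1.9, larger than that of 99.3% of genes. With 1 cycle sampled, this describes the profile and not its repetition. Whether a lower value means fewer cells that hold the transcript or less of it per cell cannot be told apart in RNA of whole myocardium.

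The count of genes past a threshold was read with limma, a linear model with a variance shared across genes, at a Benjamini-Hochberg adjusted p under 0.05 across all 22180 genes tested. By the F test for any difference among the 6 time points, 1 of the 7 identity genes was called, against 1.48% of all genes. The 1 gene was Prrx1, which was chosen on these values, so nothing is read from the count. The same holds for the 24 h cosine, with 1 of 7 against 0.0631% of all genes, and for ZT03 minus ZT15, with 1 of 7 against 1.08%. At an unadjusted p under 0.05 there were, among the other 6 genes, 3 in the F test (Pdgfra, Ddr2 and Meox1, 13.4% of all genes), 1 for the cosine (Ddr2, 10.8%) and 2 in ZT03 minus ZT15 (Pdgfra and Ddr2, 13.0%). In light minus dark 0 of 7 were called, against 0.379% of all genes, with 1 of the other 6, Ddr2, at an unadjusted p under 0.05 (10.5% of all genes). For ZT07 minus ZT19 and ZT11 minus ZT23, 0 of 7 and 0 of all genes were called with limma. At an unadjusted p under 0.05 these were 0 of the other 6 (5.58% of all genes) and 1 of the other 6, Meox1 (7.34%). Without ZT03 replicate 3 the F test called 0 of the 7 and 28 genes in all, where 329 were called with all hearts, and without ZT15 replicate 2 it called Prrx1 and Pdgfra among 275 genes in all.

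Among the receptors, Pdgfra did not pass any of these tests. The ZT03 hearts were at 0.0061, 0.15, 0.23 and 0.19, the ZT11 hearts at -0.17, -0.048, -0.15 and 0.051, and the ZT19 hearts at 0.11, 0.0012, 0.13 and 0.29. The ZT15 hearts were at -0.14, 0.27, -0.092 and -0.15, and those of ZT23 between -0.083 and -0.0012. Means were highest at ZT03 (0.14 ± 0.10, SD, n = 4) and ZT19 (0.13 ± 0.12) and lowest at ZT11 (-0.08 ± 0.10). Without ZT15 replicate 2 the lowest was ZT15, at -0.13 ± 0.029 (SD, n = 3), and ZT03 minus ZT15 was 0.27, against 0.17 with that heart. The 24 h amplitude was 0.066 ± 0.036 (SE, adjusted p with limma 0.68). The F test over time points gave an adjusted p with limma of 0.33, and of 0.05, under the threshold before rounding, without ZT15 replicate 2, the heart at 0.27. In 2 of 15 pairs of time points the hearts did not overlap: all ZT03 hearts (4.65% of genes) and all ZT19 hearts (1.99% of genes) lay above all ZT23 hearts.

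Among the identity genes, Ddr2 had the next largest amplitude after Prrx1 and did not pass any test. The hearts were at -0.035, 0.16, 0.16 and 0.20 at ZT03, against -0.31, -0.15, -0.37 and 0.0095 at ZT15. The groups overlapped by 1 heart on each side, ZT03 replicate 1 and ZT15 replicate 4. ZT03 minus ZT15 was 0.33 ± 0.10 (SE, adjusted p with limma 0.13), from means of 0.12 ± 0.11 and -0.21 ± 0.17 (SD, n = 4 each). Light minus dark was 0.17 ± 0.059 (SE, adjusted p with limma 0.26), from 0.048 ± 0.18 in 12 light-phase hearts and -0.13 ± 0.14 in 12 dark-phase hearts (SD). The 24 h amplitude was 0.13 ± 0.045 (SE) with a fitted peak at ZT4.73, and 97.2% of genes had a smaller one (adjusted p with limma 0.39). At ZT11 the hearts ran from -0.38 in replicate 1 to 0.24 in replicate 4. Without ZT11 replicate 1 the ZT11 mean was 0.039 ± 0.19 (SD, n = 3), against -0.066 ± 0.26 with it.

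Neither of the other transcription factors passed a test. Tcf21 had means between -0.12 and 0.044, a span smaller than its SD within time points of 0.17. Its highest heart was ZT19 replicate 1 at 0.39 and its lowest ZT11 replicate 1 at -0.37. The 24 h amplitude of Tcf21 was 0.045 ± 0.046 (SE, adjusted p with limma 0.89), and 0 of 15 pairs of time points were free of overlap. Meox1, a homeobox gene like Prrx1, was at -0.58, 0.22, -0.27 and -0.19 at ZT11, at 0.12, 0.23, 0.022 and 0.20 at ZT15 and at -0.13, -0.17, -0.069 and -0.15 at ZT19. The ZT15 hearts all lay above the ZT19 hearts (1.76% of genes), as did those of ZT07 (1.79%) and ZT23 (1.54%). The span of the Meox1 means was 0.35, close to that of Prrx1, but its SD within time points was 0.18, larger than that of 95.6% of genes. The F test gave an adjusted p with limma of 0.37 and the 24 h cosine an amplitude of 0.044 ± 0.057 (SE, adjusted p 0.93). ZT11 replicate 1 carried much of the low ZT11 mean, which was -0.082 ± 0.26 (SD, n = 3) without it and -0.21 ± 0.33 (SD, n = 4) with it.

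The surface marker Thy1 had its lowest mean at ZT03 and its highest at ZT11, and did not pass any test. The hearts were at 0.0029, -0.16, -0.083 and -0.18 at ZT03, and at 0.033, 0.22, -0.047 and 0.36 at ZT11. The means were -0.10 ± 0.083 at ZT03 and 0.14 ± 0.18 at ZT11 (SD, n = 4 each), and the groups overlapped. The F test over time points did not pass (adjusted p with limma 0.59), nor did the 24 h cosine, with an amplitude of 0.051 ± 0.041 (SE) and a peak at ZT13.4 (adjusted p 0.83). Of the markers of T cells, which also carry THY1, 6 were measured, 0 of them passed any of the 6 tests, and 0 were at an unadjusted p under 0.05 in limma's F test, where 13.4% of genes were.

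Postn had the widest spread between hearts of the 7 and the smallest span of means relative to it, 0.735 SDs. Its SD within time points, 0.22, was larger than that of 98.9% of genes, and its means ran from -0.09 ± 0.27 at ZT11 to 0.074 ± 0.27 at ZT07 (SD, n = 4 each). Single hearts ranged from -0.49 in ZT11 replicate 4 to 0.38 in ZT07 replicate 1. The F test gave an adjusted p with limma of 0.95, and the 24 h amplitude was 0.043 ± 0.059 (SE, adjusted p 0.94). ZT03 minus ZT15 was -0.019 ± 0.15 (SE) for Postn, an error larger than the 0.062 of Prrx1.

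**Figure D2:**
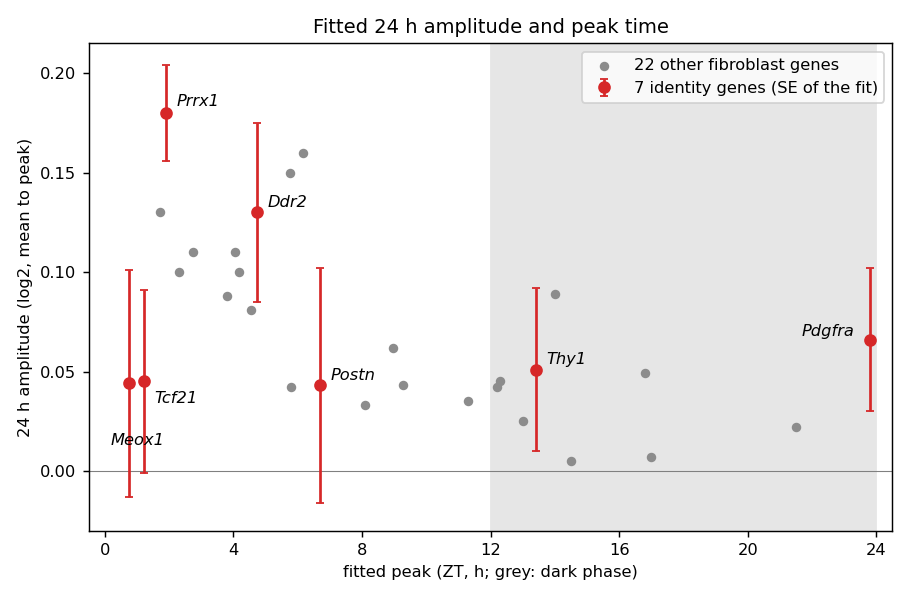
Fitted 24 h amplitude (log2, mean to peak, vertical axis) against fitted peak time (ZT in hours, horizontal axis, dark phase in grey) for the 7 identity genes in red with SE of the fit and for 22 other fibroblast genes in grey. Prrx1 has the largest amplitude plotted, 0.18 with a peak at ZT1.9, Ddr2 follows among the identity genes at 0.13, and the other 5 lie between 0.043 and 0.066.

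A separate question was whether the identity genes went up and down together from heart to heart. For this the time-point means were removed, which leaves out the profile on which Prrx1 was chosen, and deviations of the 24 hearts were compared pair by pair with a permutation test within time points. Of 21 pairs 0 passed with either coefficient, and 0 had an unadjusted p under 0.05 (two-sided, 100000 permutations, Benjamini-Hochberg over 21 pairs). Pearson's r lay between -0.28 and 0.4, with a median of -0.04, and 10 of 21 were above 0. Whether the share of fibroblasts differed between hearts was not tested.

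The highest r was that of Ddr2 with Meox1, both lowest in ZT11 replicate 1. It was 0.4 over 24 hearts (permutation p = 0.24, adjusted p = 0.86), with Spearman's rho at 0.38 (permutation p = 0.11, adjusted p = 0.76). Without the 2 hearts farthest from the median of Ddr2, r was 0.23, and without ZT11 replicate 1 it was 0.12. For the receptors Pdgfra and Ddr2, r was 0.36 (permutation p = 0.18, adjusted p = 0.86) and rho 0.35 (p = 0.15, adjusted p = 0.76), and r was 0.44 without the 2 farthest hearts and 0.29 without ZT11 replicate 1. Prrx1 had r from -0.28, with Ddr2, to 0.07, with Thy1. Its r with Ddr2 had a permutation p of 0.22 (adjusted p = 0.86), with rho at -0.29 (p = 0.24, adjusted p = 0.76) and r at -0.32 without the 2 farthest hearts. With Thy1 the r of 0.07 had a permutation p of 0.84 (adjusted p = 0.92), with rho at 0.15 (p = 0.52, adjusted p = 0.76) and r at -0.01 without the 2 farthest hearts.

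**Figure D3:**
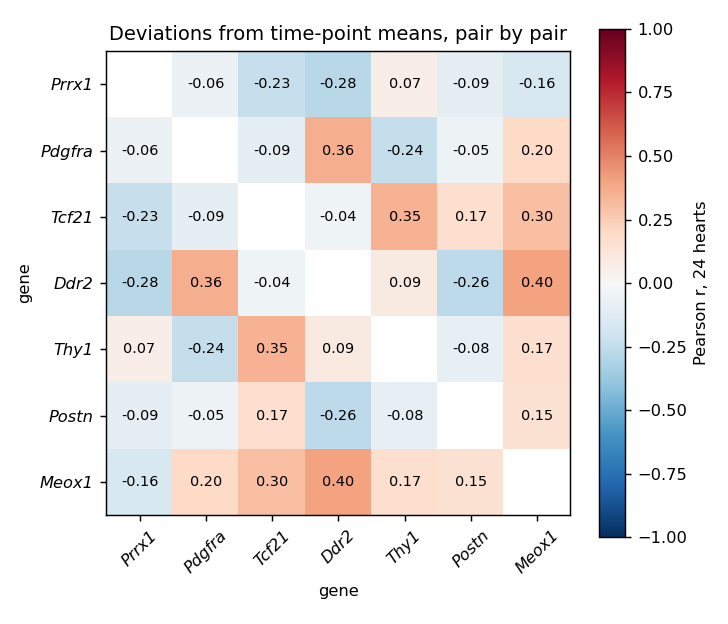
Pearson's r between the deviations of 24 hearts from their time-point means, for each pair of the 7 identity genes (both axes), on a colour scale from -1 to 1. The 21 coefficients lie between -0.28 and 0.40, and 0 of them passed the permutation test.

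The same deviations were set against the mean of 12 lists of markers, in 84 relations. The smallest p was that of Pdgfra with the mean of 22 further fibroblast genes. Pearson's r was 0.53 (permutation p = 0.00064, adjusted p = 0.054 over 84 relations) and Spearman's rho 0.67 (permutation p = 0.00025, adjusted p = 0.021). It was 0.57 without the 2 hearts farthest from the median of Pdgfra and 0.50 without ZT11 replicate 1. Thus 0 of 84 relations passed by Pearson's r and 1 by Spearman's rho. The highest r was that of Ddr2 with the list of mural cells (pericytes and smooth muscle), 0.65 (permutation p = 0.015, adjusted p = 0.23), with rho at 0.48 (p = 0.045, adjusted p = 0.35) and r at 0.35 without the 2 farthest hearts. For Meox1 with the fibroblast genes r was 0.61 (permutation p = 0.023, adjusted p = 0.28), with rho at 0.41 (p = 0.082, adjusted p = 0.5) and r at 0.33 without the 2 farthest hearts. Ddr2 also had r of 0.59 with the PDGF list, 0.56 with the activation list, 0.55 with cardiomyocytes and 0.54 with endothelium, and none of these passed. Prrx1 passed with none of the 12 lists, among them those of epicardium, mural cells, endothelium, cardiomyocytes and macrophages. With the 22 further fibroblast genes its r was -0.03 (permutation p = 0.88, adjusted p = 0.96), with rho at -0.02 (p = 0.93, adjusted p = 0.97). Its r of largest size was -0.4, with the T cell list (permutation p = 0.21, adjusted p = 0.62).

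The 22 further fibroblast genes code mostly for collagens, proteoglycans and other matrix proteins and for surface markers, and include Vim, an intermediate filament gene, and Gsn, which codes for an actin-severing protein. In the F test over time points 0 of 22 passed with limma (1.48% of all genes), and 5 had an unadjusted p under 0.05 (13.4%). In light minus dark 0 passed (0.379%), with 5 at an unadjusted p under 0.05 (10.5%), and in the 24 h cosine 0 passed (0.0631%), with 6 (10.8%). Between ZT03 and ZT15 1 of 22 passed, against 1.08% of all genes. This was Dcn, which codes for the collagen-binding proteoglycan decorin, higher at ZT03 by 0.30 ± 0.072 (SE, adjusted p with limma 0.047), from means of 0.22 ± 0.14 at ZT03 and -0.079 ± 0.086 at ZT15 (SD, n = 4 each). At an unadjusted p under 0.05 there were 8 of 22 for this contrast, 7 with the higher value at ZT03 and 1 at ZT15, where 13.0% of all genes were. The median of the list was 0.073, against -0.0051 over all genes. The mean of the 22 genes ran from 0.0033 to 0.11 over 4 ZT03 hearts and from -0.029 to 0.014 over 4 ZT15 hearts. At ZT11 it was 0.011 ± 0.091 and at ZT23 -0.024 ± 0.083 (SD, n = 4 each), where Prrx1 had means of -0.11 and 0.16. Dcn was at -0.13 ± 0.10 (SD, n = 4) at ZT23. The part of these genes in the difference of Prrx1 was not tested. The call of Dcn was close to the threshold: it passed in 10 of 30 alternative fits, with adjusted p from 0.019 to 0.17, and in 8 of 24 with a heart left out.

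**Figure D4:**
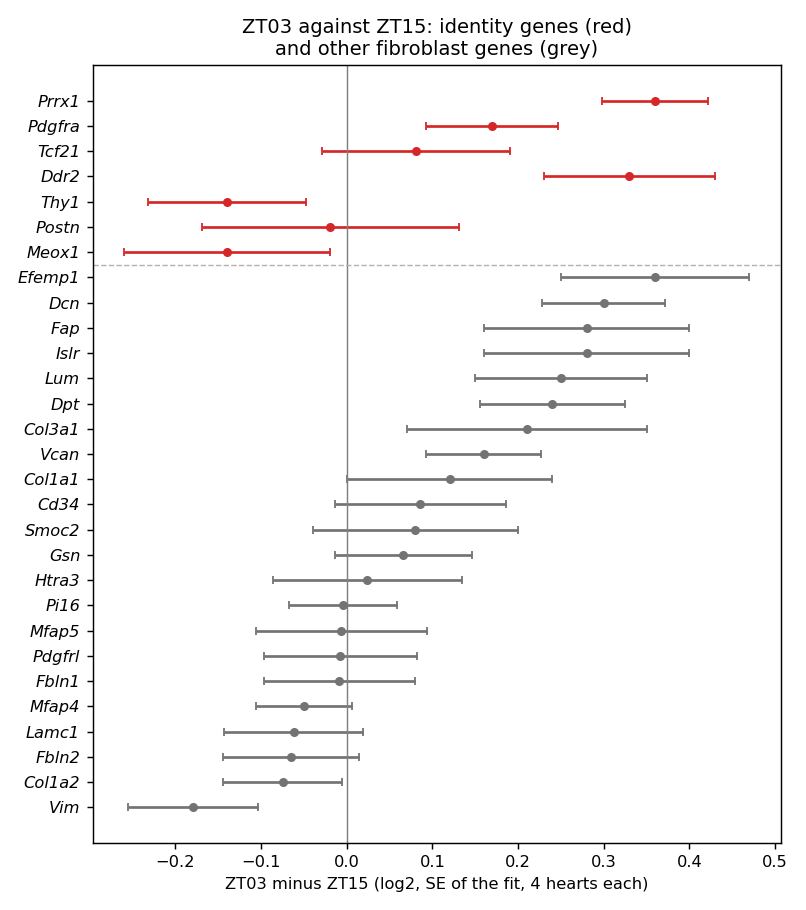
ZT03 minus ZT15 (log2, horizontal axis, bars are SE of the fit, 4 hearts per time point) for the 7 identity genes in red, in the order of the text, and 22 other fibroblast genes in grey, in order of size (vertical axis). The identity genes spread from -0.14 for Thy1 and Meox1 to 0.36 for Prrx1, and the other genes from -0.18 for Vim to 0.36 for Efemp1.

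Of the ligands and the other receptor of the PDGF system, 0 of 5 passed any test with limma. At an unadjusted p under 0.05 there were 4 of 5 in light minus dark (10.5% of all genes), with differences of 0.15 for Pdgfb, 0.091 for Pdgfc, 0.18 for Pdgfrb and -0.10 for Pdgfa. In ZT03 minus ZT15 there were 2 of 5 (13.0%), Pdgfc and Pdgfa, with -0.19 ± 0.068 (SE) for Pdgfa. The ligand gene Pdgfc, whose product activates PDGFRA, came closest: ZT03 minus ZT15 was 0.29 ± 0.072 (SE, adjusted p with limma 0.057), with means of 0.14 ± 0.086 at ZT03 and -0.15 ± 0.11 at ZT15 (SD, n = 4 each). Pdgfd had an adjusted p with limma of 0.42 in the F test. Of 22 measured genes of fibroblast activation and the TGF beta response, 1 passed the F test (1.48% of all genes). At an unadjusted p under 0.05 in limma's F test there were 5 of 22 (13.4%). The gene that passed was Smad2, which codes for a signal carrier of that pathway. Its means were 0.18 ± 0.10 at ZT19 and -0.083 ± 0.05 at ZT23 (SD, n = 4 each, adjusted p with limma 0.035), and it passed in 15 of 30 alternative fits, with adjusted p from 0.021 to 0.097. Of 10 partners and paralogs of the identity genes, 0 passed any test (1.48% of all genes passed the F test). Among the 10 were Prrx2, Meox2, Ddr1 and the helix-loop-helix partners Tcf3, Tcf4 and Tcf12. At an unadjusted p under 0.05 with limma there were 0 in the F test (13.4% of all genes). There was 1 in light minus dark (Tcf4, 10.5%) and 1 in ZT07 minus ZT19 (5.58%). In the F test the smallest p of that list was that of Ddr1, with an adjusted p of 0.64, followed by Itgb3 with 0.67.

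Markers of the other cell types of the heart were measured beside these. In the F test with limma 0 of 8 epicardial, 0 of 8 mural, 0 of 8 endothelial, 0 of 9 cardiomyocyte and 0 of 8 macrophage genes passed, and 0 of 5 adipocyte and 0 of 2 Schwann cell genes. At an unadjusted p under 0.05 these were 1, 2, 2, 2, 0, 1 and 0 genes in the same order, where 13.4% of all genes were. The smallest adjusted p in that test was 0.26 for Krt19 of the epicardial list, with 0.68 for Msln. It was 0.27 for Kcnj8 and 0.36 for Mcam of the mural list, and 0.13 for Emcn and 0.27 for Cdh5 of the endothelial list. Myl3 and Tnni3 of the cardiomyocyte list had 0.21 and 0.23, Fcgr1 and Cd14 of the macrophage list 0.45 and 0.52, and Cd4 and Cd3e of the T cell list 0.91 and 0.93. Plin1 and Retn of the adipocyte list had 0.35 and 0.5, and Sox10 and S100b of the Schwann cell list 0.88 and 0.96.

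The cardiomyocyte list mean was -0.036 ± 0.056 at ZT03 and 0.0096 ± 0.027 at ZT15 (SD, n = 4 each), and the endothelial one 0.013 ± 0.052 and -0.025 ± 0.079. Single hearts of the cardiomyocyte list ran from -0.094 to 0.041 at ZT03 and from -0.012 to 0.047 at ZT15, and those of the endothelial list from -0.036 to 0.084 and from -0.12 to 0.053. The time points overlapped in both lists. At an unadjusted p under 0.05 in ZT03 minus ZT15 (13.0% of all genes) there were 2 of 8 endothelial genes, Vwf (0.29 ± 0.10, SE) and Emcn (0.20 ± 0.072), and 2 of 9 cardiomyocyte genes, Tnni3 (-0.17 ± 0.058) and Myl3 (-0.22 ± 0.092). None of these passed (adjusted p with limma 0.16, 0.19, 0.15 and 0.28), and their part in the difference of Prrx1 was not tested. Both lists were split: ZT03 minus ZT15 was above 0 for 5 of 8 endothelial and 3 of 9 cardiomyocyte genes. The lowest endothelial estimate was -0.19 ± 0.10 (SE) for Egfl7, and the highest cardiomyocyte one 0.051 ± 0.057 (SE) for Ryr2.

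Over all 24 hearts the gene most like Prrx1 by Pearson's r was Adam22 (0.77), followed by Tet2 (0.75), Grb2, Mtrex and Dipk1a (0.74 each), Pwwp3b (0.73), Dcun1d4 and Rnf121 (0.7 each) and Rhobtb3 and Pdgfc (0.69 each). The points share their time of day, so this describes likeness of the whole profile. Tet2, which codes for a DNA demethylating enzyme, lay at 0.14 at ZT03 and -0.22 at ZT15, and Rhobtb3 at 0.22 and -0.23. The genes least like Prrx1 were B3gnt7 (-0.74), Vmn2r5 (-0.72), Asic5 (-0.71), Prom2 (-0.7) and Aurkc (-0.69). The other identity genes were far down this order: Ddr2 (0.21) was in place 4356 of 22179 and Pdgfra (0.2) in place 4600, with Tcf21 (0.04), Meox1 (0.02), Postn (-0.03) and Thy1 (-0.13) behind them.

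Each of the other 6 genes had its own closest genes over the 24 hearts. For Pdgfra they were Ube2q2 (r = 0.8), Gps1 (0.79) and Efr3a (0.76), and for Ddr2 Cpeb4 (0.82), Entpd5 (0.8) and Neo1 (0.8). For Meox1 they were Eif4g2 (0.8), Tlnrd1 (0.75) and Elavl1 (0.72), and for Tcf21 Abce1 (0.71), Rtp4 (0.7) and Gtpbp4 (0.7). Thy1 was most like Tmem215 (0.7) and 2 olfactory receptor genes, Olfr538 (0.67) and Olfr1342 (0.66), and Postn most like Rnf223 (0.64), Zfp13 (0.64) and Olfr399 (0.63), after 1 predicted or clone-named gene model was passed over for Thy1 and 2 for Postn. Between identity genes, the highest r over 24 hearts was 0.46 for Pdgfra with Ddr2 and the lowest -0.48 for Pdgfra with Thy1.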

How the data were processed

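Per the labels, biotin-labelled cRNA from 500 ng of total RNA of each heart was hybridised to a single-colour Affymetrix array. In the file the authors deposited, each feature is a log value, taken here as log2, minus its own median over all arrays (largest absolute median 5e-07). Summarization, normalization between arrays, log base and any filter are not given in the sources used here. Of 34351 features, 23521 had 1 symbol in the platform annotation, 1814 several and 9016 none. Features of a gene were averaged (1082 genes had more than 1), which left 22180 genes. Centred values have no level, so no filter on low values and no background correction could be applied.

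Fits used limma 3.58.1 in R 4.3.3 (lmFit, eBayes) with 6 time-point means or a cosine and sine pair of 24 h, adjusted by Benjamini-Hochberg over all genes. Scripts were tested on simulated data. Named genes were all 7 identity genes, list genes past a test (otherwise the 2 of smallest p in the F test over time points) and the genes of highest or lowest r. Some further list genes are named for their unadjusted p or the size of their change. The members and lists were chosen with earlier results of these data known. Some listed genes are not reported here. Correlations used NumPy 2.4.6. Alternatives were quantile normalization, array weights, a block for replicate number, robust eBayes, each feature tested on its own, added 12 h terms and leaving out hearts.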

Additional observations from a re-analysis of the deposited data

Results flagged for a closer look

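Of 42 sets of 4 hearts (7 genes at 6 time points), 4 held a heart whose gap to the nearest other, over the range of the 4, was above Dixon's critical value for 4 samples. Chance flags about 1 in 20 such sets. Prrx1 in ZT19 replicate 4 was at 0.14, where the next heart was at -0.074. Pdgfra in ZT15 replicate 2 was at 0.27, with the next at -0.092. Thy1 in ZT19 replicate 1 was at 0.13, with the next at -0.049, and Meox1 in ZT23 replicate 1 was at 0.44, with the next at 0.016. The 4 values came from 4 different hearts.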

How the results depend on the processing

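The 24 h amplitude of Prrx1 lay between 0.17 and 0.19 when any single heart was dropped, and its peak between ZT1.74 and ZT2.24. The amplitudes of the others ranged from 0.054 to 0.087 for Pdgfra, 0.026 to 0.066 for Tcf21, 0.11 to 0.14 for Ddr2, 0.033 to 0.074 for Thy1, 0.01 to 0.076 for Postn and 0.02 to 0.067 for Meox1. With a heart left out, the count of identity genes past the F test over time points ranged from 0 (without ZT03 replicate 3) to 2 (without ZT15 replicate 2). It stayed at 1 for the 24 h cosine and for ZT03 minus ZT15, with Prrx1 as that gene in each fit. It stayed at 0 for light minus dark, ZT07 minus ZT19, ZT11 minus ZT23 and the pairs of genes between hearts. Prrx1 was taken as chosen on these values, so nothing is read from its calls. For the 22 further fibroblast genes the F test counted from 0 to 2, with 1 (Dcn; 318 over all genes) without ZT03 replicate 4 and 2 (Dcn and Efemp1; 323 over all genes) without ZT19 replicate 2, and the 24 h cosine and light minus dark counted 0. Array weights gave 1 (Dcn; 477 over all genes), and leaving out both ZT11 replicate 1 and ZT19 replicate 2 gave 2 (270 over all genes). The cause was not tested. Light minus dark changed sign for Pdgfra (0.00024) in 14 of 24 leave-outs, between -0.014 and 0.033, and at -0.004 without both hearts. It did so for Tcf21 in 12 (-0.022 to 0.042), for Thy1 in 1 (-0.046 to 0.0071) and for Postn in 1 (-0.0041 to 0.079). ZT03 minus ZT15 of Postn did so in 3 (-0.13 to 0.071). None of these differences passed its own test in any of these fits. Deviations from time-point means were correlated over genes between hearts of different time points. Hearts of the same replicate number had r from -0.233 to 0.232 in 60 pairs (median -0.000749), with 8 over 0.1. Those of other numbers had r from -0.238 to 0.249 in 180 pairs (median -0.000959), with 18 over 0.1. The main fits did not pair hearts by number, and whether the numbers mark a batch was not tested. With a replicate block, 218 genes passed the F test (329 without) and 11 the 24 h test (14 without). Of the 7 identity genes 1 passed each, again Prrx1, from which nothing is read. In limma with that block the adjusted p was 0.072 for Dcn in ZT03 minus ZT15 and 0.051 for Smad2 in the F test. Neither then passed. Over all genes, 24 h calls were 30 with quantile normalization, 66 with array weights and 74 with 12 h terms, (14 otherwise). Light minus dark calls were 144 with quantile normalization (84 otherwise), and ZT03 minus ZT15 calls 430 with array weights (239 otherwise). With a heart left out, F test calls ran from 28 (without ZT03 replicate 3) to 467, 24 h calls from 3 to 45, light minus dark calls from 51 to 183 and ZT03 minus ZT15 calls from 25 (without ZT03 replicate 3) to 326. ZT07 minus ZT19 calls ran from 0 to 3, with 8 under quantile normalization, and ZT11 minus ZT23 calls from 0 to 4, with 5 without both hearts. The Dcn and Smad2 repeats were chosen after seeing the data. Signal over background is unknown for centred values.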
